A study of Homo sapiens with 34 samples.

Results

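The experiment described here asked what added androgen does to MDAPCa2a cells that grow on a mineral surface in serum depleted of steroids. MDAPCa2a is a human prostate cancer line derived from a bone metastasis. The members were the 4 libraries, of 34 in the study, that the labels give as MDAPCa2a on amorphous calcium phosphate (ACP, a mineral coating of the culture plate that stands in for bone) in stripped serum (2 libraries) or in stripped serum with androgen (2 libraries). Both groups were cultured in BRFF-HPC1 base medium with 20% fetal bovine serum stripped by charcoal and dextran, were passaged from flasks onto the coated plates, and were collected on day 4 after a medium change on day 2. The androgen was labelled 100 mM. The sample titles name it DHT and the treatment labels name it testosterone, so it is called androgen here, and its dose is given only as labelled. The whole study sequenced poly(A)-selected RNA of 4 prostate lines (RWPE, LNCaP, VCaP and MDAPCa2a) on plastic or ACP, in 17 groups. The other MDAPCa2a groups were plastic in control medium and plastic in stripped serum, with 2 libraries each. The protein coating used for this line on plastic was left out on ACP, and no MDAPCa2a group on ACP in control medium was analysed here, so the level of a gene on ACP before serum was stripped is not known.

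Androgens act through a nuclear receptor. Bound by hormone, the receptor enters the nucleus, pairs with itself on DNA and recruits co-activators to enhancers and promoters of its targets. In prostate epithelium these targets include the secreted kallikrein proteases KLK3 (prostate-specific antigen) and KLK2, the membrane protease TMPRSS2 and the receptor's co-chaperone FKBP5, and they serve as the usual readout of androgen action. Charcoal and dextran remove steroids from serum, so targets usually fall in stripped serum and return when androgen is added. The receptor of MDAPCa2a is known to be mutated and to answer to glucocorticoids as well.

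The promoters of KLK3 and KLK2 are shown because these are the classical targets on which the comparison turns. The 250 bases before each start site follow, 5′ to 3′ on the plus strand, from RefSeq (GRCh38.p14), at chr19:50854665-50854914 for KLK3 and chr19:50873189-50873438 for KLK2. Capitals mark matches to AGAACA or GGAACA, hexamers of the element that steroid receptors bind. Both strands were searched (TGTTCT and TGTTCC are the reverse complements), and no match overlapped another.
KLK3: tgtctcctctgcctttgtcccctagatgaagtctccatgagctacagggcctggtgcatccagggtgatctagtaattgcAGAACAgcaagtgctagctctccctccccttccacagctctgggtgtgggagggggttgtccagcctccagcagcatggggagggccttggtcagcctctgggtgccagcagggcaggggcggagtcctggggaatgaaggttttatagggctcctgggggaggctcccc
KLK2: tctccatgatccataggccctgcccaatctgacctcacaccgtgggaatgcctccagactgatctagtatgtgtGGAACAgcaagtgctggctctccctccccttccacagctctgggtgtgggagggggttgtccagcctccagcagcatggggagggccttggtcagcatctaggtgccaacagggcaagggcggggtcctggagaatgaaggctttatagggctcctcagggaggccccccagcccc
Each window held 1 match, AGAACA at 170 to 165 bases before the start in KLK3 and GGAACA at 176 to 171 bases before it in KLK2, each followed by gcaagtgct. Such matches are common: 12.4% of the 35116 promoter windows of this length held AGAACA on either strand and 11.6% held GGAACA. A match describes letters and not a bound site.

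The 4 libraries held between 15.4 M and 19.0 M counted reads, against 24.6 M to 38.3 M in the other MDAPCa2a libraries and 17.1 M to 44.8 M in the other lines. They carried the luminal markers of their label: FOLH1, a membrane peptidase of prostate epithelium, stood at 2665, 2679.6, 2237 and 2557 CPM (read counts scaled to library size) in stripped replicates 1 and 2 and androgen replicates 1 and 2. Markers of fibroblasts, blood and endothelium were near 0, while basal and squamous markers summed to between 49.5 and 60.8 CPM and liver markers to between 15.1 and 22.5 CPM. Of 10 fibroblast markers, 3 had no read in any of the 4 libraries and the list summed to between 1.17 and 2.09 CPM; of 11 blood cell markers 6 had no read, with sums from 0.827 to 1.99 CPM; and of 6 endothelial markers 3 had no read, with sums from 0.255 to 0.827 CPM. 1 library stood apart. Over the 10489 genes with a mean of at least 5 CPM, the root mean square difference in log2 CPM between the stripped replicates was 0.53, larger than the 0.18 between stripped replicate 2 and androgen replicate 2 and the 0.31 between the androgen replicates. Stripped replicate 1 lay 0.40 from androgen replicate 1 and 0.58 from androgen replicate 2. A count of 528 genes differed by a factor of 2 or more between the stripped replicates, 51 between the androgen replicates and 6 between stripped and androgen replicate 2. Results are therefore given with and without stripped replicate 1. Nothing in the labels says that replicates came from separate cultures, so p-values measure only the spread between these samples.

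No gene passed the threshold for androgen in MDAPCa2a. Of 13626 genes tested with edgeR's quasi-likelihood test, 0 (0%) had a Benjamini-Hochberg adjusted p below 0.05, and the smallest adjusted p was 0.968. DESeq2 called 3 genes, ITM2A, NPY and TMEM238. Without the filter on low counts edgeR called 9: ARSI, ERG, ITM2A, NPY, RMRP, RPPH1, SCARNA10, SNORA73B and TMEM238. At an unadjusted p below 0.05 stood 236 genes (1.73%), 133 higher with androgen (0.976%) and 103 lower (0.756%), where evenly spread p-values would give 681. The median log2 change was -0.01, the middle 50% of genes lay between -0.18 and 0.16, and 48.4% of genes were above 0. For 9951 genes (73%) the 95% interval of the log2 change lay within 1 of 0 in either direction. In simulated counts, where no library shifted as a whole, this fit called 42.5% of the genes given a log2 change of 1. A gene without a call may therefore still differ by that much. The groups did not overlap for 3171 genes (23.3%), 1542 higher (11.3%) and 1629 lower (12%). In bulk RNA, fewer cells of a kind and less RNA per cell cannot be told apart.

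**Figure D1:**
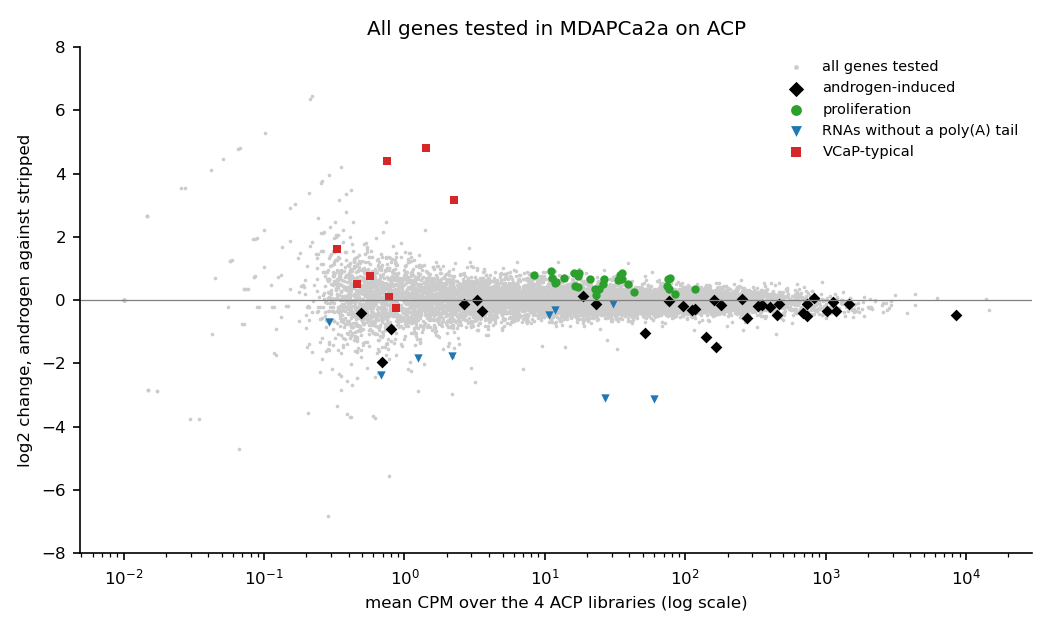
Log2 change with androgen (vertical axis) against mean CPM over the 4 ACP libraries (log axis) for the 13626 genes tested in MDAPCa2a; symbols mark 4 groups of genes described in the text. Most androgen-induced genes (28 of 33) lie below 0, and all 30 proliferation genes lie above 0.

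None of the canonical androgen targets passed the threshold. KLK3 read 12615 and 7128 CPM in the stripped replicates and 6957 and 7348 CPM with androgen. Stripped replicate 1 was the highest library and the other 3 lay together, so the groups overlapped. The log2 change was -0.46 ± 0.26 (SE), with a 95% interval from -1.06 to 0.13 (edgeR, adjusted p = 0.968).

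KLK2, the kallikrein that activates the KLK3 precursor, read 1549.85 and 1104 CPM in stripped serum and 983 and 1123 CPM with androgen. The groups overlapped, stripped replicate 1 being highest. Its log2 change was -0.33 ± 0.21 (interval -0.80 to 0.14). KLK4, a further secreted kallikrein, read 164 and 82.2 against 95.1 and 102 CPM, a log2 change of -0.32 ± 0.28 (interval -0.95 to 0.31). Here too stripped replicate 1 was highest, but stripped replicate 2 was the lowest of the 4.

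TMPRSS2, a serine protease of the cell surface, read 1404 and 889.7 CPM in stripped serum and 934 and 861 CPM with androgen. Its groups overlapped, with stripped replicate 1 alone above the rest, and its log2 change was -0.35 ± 0.24 (interval -0.90 to 0.19). FKBP5, which binds the HSP90 complex of steroid receptors, read 410.4 and 325 against 375 and 293 CPM. Replicate 1 was the higher library of each group, and the log2 change was -0.14 ± 0.20 (interval -0.60 to 0.32). Without stripped replicate 1 the log2 changes were 0.0040 for KLK3, -0.07 for KLK2, 0.011 for TMPRSS2 and 0.04 for FKBP5, all nearer to 0.

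**Figure D2:**
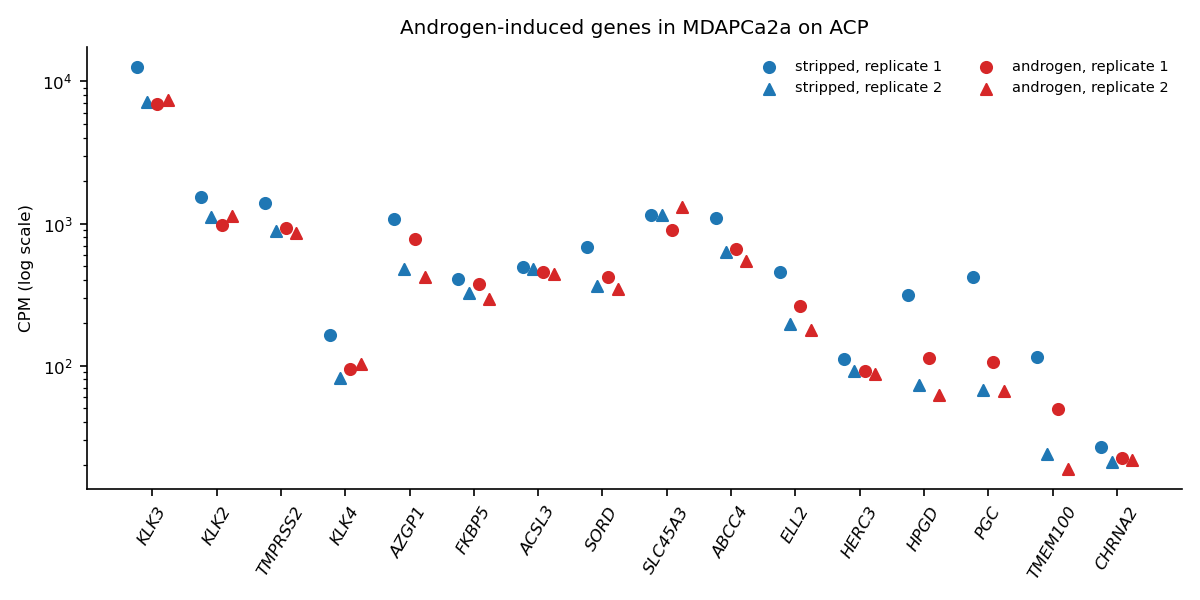
CPM (log axis) of 16 androgen-induced genes in each of the 4 MDAPCa2a libraries on ACP, blue for stripped serum and red for androgen, circles for replicate 1 and triangles for replicate 2. For KLK3, HPGD and PGC stripped replicate 1 is the highest point and the other 3 lie below it, and for no gene drawn are both red points above both blue ones.

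Of 34 androgen-induced genes listed, 33 were in the table and all of those were tested. None passed the threshold, 5 had a log2 change above 0 and 28 below, and the median was -0.23 against -0.01 over all genes. Only SGK1 had an unadjusted p below 0.05, 1 of 33 beside 1.73% of all genes. In no case were both androgen libraries above both stripped libraries, and in 5 of 33 both were below, beside 11.3% and 12% of all genes. With all 4 libraries the upper end of the 95% interval was under 1 for all 33 genes. Without stripped replicate 1 the median was 0.01 and 18 genes were above 0. Without stripped replicate 2 the median was -0.49 and 4 were above 0.

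Genes of lipid and sugar metabolism in the list gave no call. ACSL3, which activates long-chain fatty acids, read 496 and 478 CPM in stripped serum and 458 and 444 CPM with androgen (log2 change -0.11 ± 0.17). Its groups did not overlap, with both androgen libraries slightly lower. CAMKK2, a kinase upstream of AMPK, read 159 and 162 against 159.9 and 163 CPM, so its 4 libraries were almost equal (0.0098, interval -0.32 to 0.34). SORD, which oxidises sorbitol to fructose, read 683 and 365 against 418 and 347 CPM (-0.45 ± 0.28), with stripped replicate 1 alone high.

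Membrane proteins of the list gave no call either. SLC45A3, a transporter restricted largely to prostate, read 1140.46 and 1148 CPM in stripped serum and 896 and 1303 CPM with androgen, so the androgen libraries lay on either side of the stripped ones (-0.06 ± 0.22). ABCC4, an exporter of organic anions, read 1091 and 627 against 662 and 547 CPM (-0.51 ± 0.29). TRPM8, a cold-sensing ion channel and the list's highest log2 change, read 16.3 and 19.0 against 17.1 and 21.8 CPM (0.14 ± 0.30), and its groups overlapped.

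HPGD and PGC, among the list's largest rises in LNCaP, gave no call in MDAPCa2a. HPGD, which inactivates prostaglandins, read 317 and 72.9 CPM in stripped serum and 113 and 62.5 CPM with androgen, and PGC, the pepsinogen also made by prostate, read 418 and 67.6 against 106 and 66.4 CPM. In both genes replicate 1 was above replicate 2 in each group, and most of all in stripped serum. Their log2 changes were -1.15 ± 0.59 and -1.49 ± 0.70, and 0.26 and 0.35 without stripped replicate 1. SGK1, a kinase induced by steroids, had the list's lowest log2 change on few reads: 20 and 14 reads in stripped serum and 7 and 3 with androgen, or 1.37, 0.827, 0.412 and 0.153 CPM (-1.96 ± 0.58, adjusted p = 0.968).

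On plastic, most of these genes read higher in stripped serum than in control medium in the same line. KLK3 read 5170 and 5329 CPM in control medium and 7292 and 8655 CPM in stripped serum on plastic. The plastic control libraries were below every ACP library, and the plastic stripped libraries lay within the ACP range. FKBP5 read 171 and 209 CPM in control medium and 774 and 851 CPM in stripped serum on plastic, above every ACP library. PGC read 36.1 and 51.9 against 684 and 319 CPM. Both stripped libraries lay above both control libraries on plastic for 28 of the 33 genes and below for 3, where over all genes tested on ACP those shares were 25.6% and 28.05%. The labels give day 4 for the plastic stripped libraries and no day for the plastic control libraries. Medium and time in culture therefore cannot be told apart here. These levels are given as a description, and the contrast on plastic was not tested.

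Androgen at the same labelled dose had been added on ACP in LNCaP and VCaP, with 2 libraries in each group. Both lines were cultured in a lower percentage of serum than the 20% of MDAPCa2a. Line and serum percentage therefore cannot be told apart in the comparisons between lines. In fits of each line, 1133 of 14656 genes (7.73%) passed the threshold in LNCaP and 2727 of 15614 genes (17.5%) in VCaP. In LNCaP 3.77% were higher and 3.96% lower, and in VCaP 8.67% were higher and 8.8% lower. LNCaP came from a lymph node metastasis and VCaP from a vertebral one. Of the androgen-induced genes, 26 of 32 tested rose in LNCaP (median log2 change 1.86) and 18 of 32 rose in VCaP (1.34). The difference between lines was tested in a fit of all 34 libraries. For MDAPCa2a minus LNCaP it passed the threshold in 194 of 17323 genes (1.12%), 61 above 0 (0.352%) and 133 below. For MDAPCa2a minus VCaP it passed in 1362 genes (7.86%), 739 above (4.27%) and 623 below. The androgen-induced genes lay below 0 past the threshold in 16 of 33 against LNCaP and in 13 of 33 against VCaP, and above 0 in none, beside 0.768% and 3.6% of all genes below 0. Androgen-induced genes that differed from LNCaP included FKBP5, TMPRSS2, ELL2, HERC3, ACSL3 and SLC45A3.

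The FKBP5 log2 change in MDAPCa2a differed from that in LNCaP by -2.05 ± 0.40 (edgeR adjusted p = 0.00776) and from that in VCaP by -3.41 ± 0.41 (adjusted p = 1.77e-05). For TMPRSS2 the differences were -2.59 ± 0.62 against LNCaP (adjusted p = 0.0354) and -3.21 ± 0.62 against VCaP (adjusted p = 0.00244). When each of 8 libraries was left out in turn, the call against LNCaP was lost in 6 fits for TMPRSS2 and in 3 for FKBP5, and neither call against VCaP was lost. For HERC3, a ubiquitin ligase, they were -3.75 ± 0.48 (adjusted p = 7.32e-05) and -3.11 ± 0.48 (adjusted p = 2.91e-04), and for ELL2, a transcription elongation factor, -3.47 ± 0.48 (adjusted p = 1.87e-04) and -1.91 ± 0.47 (adjusted p = 0.0127).

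For KLK3 and KLK2 the call differed by line or by fit. The KLK3 difference was -5.19 ± 0.76 against VCaP (adjusted p = 2.11e-04) but -1.44 ± 0.72 against LNCaP (adjusted p = 0.446, interval -2.93 to 0.05). For KLK2 the differences were -2.08 ± 0.94 (adjusted p = 0.38) and -1.19 ± 0.93 (adjusted p = 0.48), neither past the threshold. In a fit of the 12 stripped and androgen libraries on ACP alone, the KLK2 difference from LNCaP was called (-2.12, edgeR adjusted p = 0.0417). On the size factors of all lines, KLK3 in stripped serum on ACP read 11697 and 7006 CPM in MDAPCa2a, 1560.45 and 1777 CPM in LNCaP and 36.1 and 120.2 CPM in VCaP. With androgen it read 6772 and 7286 CPM in MDAPCa2a, 3249 and 3553 CPM in LNCaP and 3446 and 840.2 CPM in VCaP. So KLK3 in MDAPCa2a without androgen was already above every LNCaP and VCaP library of this comparison. FKBP5 in stripped serum read 380.5 and 319.8 CPM in MDAPCa2a, 58.5 and 77.4 CPM in LNCaP and 62.5 and 121 CPM in VCaP, and MDAPCa2a was again the highest line before androgen.

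**Figure D3:**
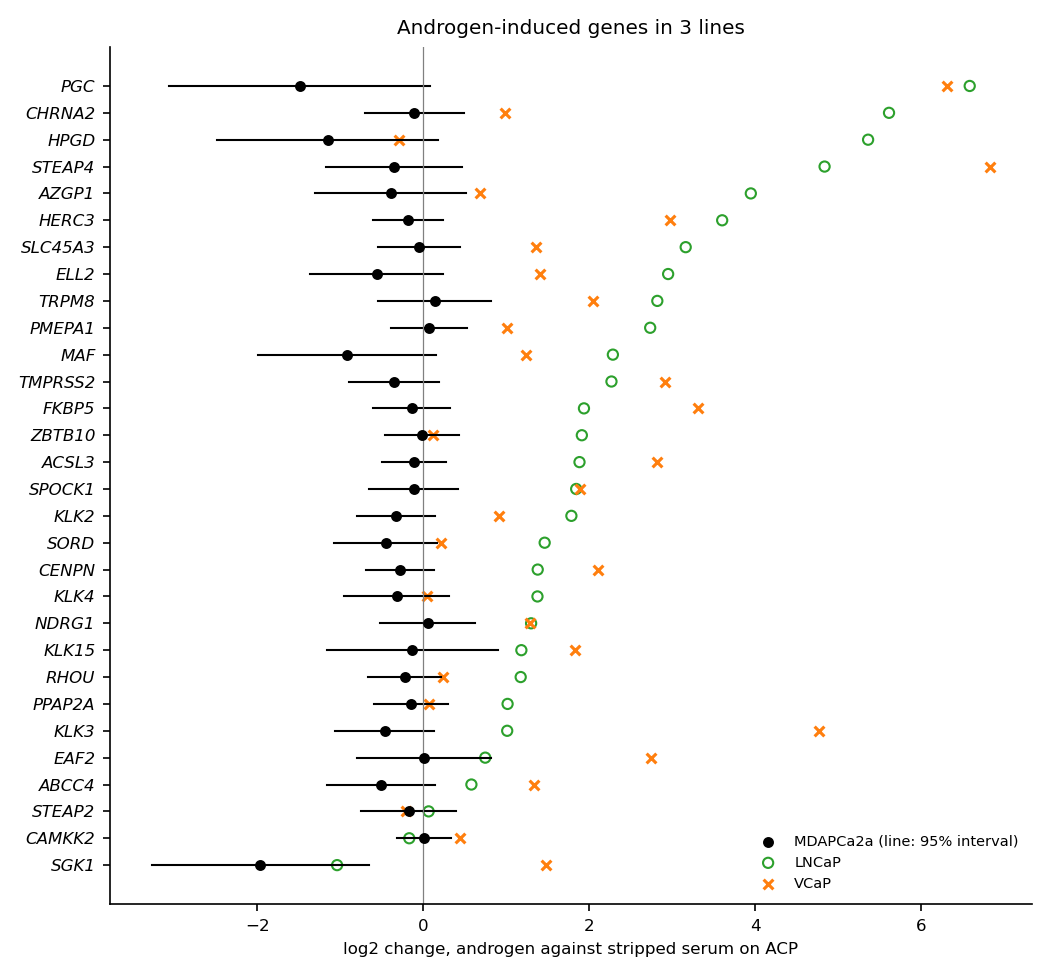
Log2 change with androgen on ACP for 30 androgen-induced genes, ordered by LNCaP: black points with 95% intervals are MDAPCa2a, green circles LNCaP and orange crosses VCaP, each from a fit of its own line. MDAPCa2a points lie between -1.96 and 0.14 while most LNCaP circles lie above 1.

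Among genes of at least 5 CPM, the differences most below 0 against LNCaP were those of PGC (-8.01 ± 1.07), HPGD (-6.46 ± 0.75), PCA3 (-6.02 ± 1.31), CHRNA2 (-5.69 ± 0.54) and UGT2B28 (-5.32 ± 0.96), all past the threshold with edgeR. The PCA3 call was lost in 6 and the UGT2B28 call in 3 of the 8 fits that left out a library. CHRNA2, a nicotinic receptor subunit, shows the form: MDAPCa2a read 24.9 and 20.6 CPM in stripped serum and 21.8 and 21.6 CPM with androgen, and LNCaP read 1.10 and 0.665 against 50.2 and 37.6 CPM. MDAPCa2a stayed at 1 level that lay between the LNCaP groups. PCA3, a noncoding RNA of prostate cancer, read 15.01 and 12.5 against 11.6 and 11.2 CPM in MDAPCa2a, above the LNCaP libraries, which read 0.0323, 0, 1.17 and 1.11 CPM.

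TLL1 and DDC, with differences above 0, fell with androgen in LNCaP. TLL1, a metalloprotease that processes collagen precursors, read 31.9 and 47.1 CPM in stripped LNCaP and 3.11 and 3.30 CPM with androgen, while MDAPCa2a read 8.46 and 35.6 against 29.9 and 45.1 CPM (difference 4.39 ± 0.66, adjusted p = 4.75e-04). The MDAPCa2a groups overlapped. DDC, the decarboxylase of dopamine and serotonin synthesis, read 109 and 153 against 4.08 and 15.7 CPM in LNCaP and 32.0 and 70.1 against 38.6 and 80.8 CPM in MDAPCa2a (difference 3.95 ± 0.74, adjusted p = 0.00492, lost in 2 of the 8 fits that left out a library). In MDAPCa2a replicate 2 was above replicate 1 in each group. The other 3 of the 5 most positive differences against LNCaP were those of SNPH, PLA2G2A and ABCG2.

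Against VCaP, SEMA3G, a secreted guidance protein, and STEAP4, a metalloreductase, gave differences of -8.65 ± 1.35 and -7.15 ± 1.15. SEMA3G read 30.5 and 30.5 CPM in stripped MDAPCa2a and 27.6 and 34.4 CPM with androgen, and in VCaP it had no read in either stripped library and 2.42 and 1.27 CPM with androgen, so the fitted size depends on the prior count. STEAP4 read 4.197 and 3.37 against 3.78 and 2.32 CPM in MDAPCa2a, and 3.804 and 7.17 against 831 and 426 CPM in VCaP. Before androgen both lines were at a like low level of STEAP4, and VCaP alone was high with it.

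Genes that passed the threshold in another line were then read in MDAPCa2a, whose libraries played no part in choosing them. Of 1133 genes called in LNCaP, 1048 were tested in MDAPCa2a and 393 of them (37.5%) had the LNCaP sign. The 512 that rose in LNCaP had a median of -0.07 in MDAPCa2a with 38.5% above 0, and the 536 that fell had a median of 0.13 with 36.6% below 0, where over all genes 48.4% were above 0 and 51.5% below. Without stripped replicate 1 the share of the LNCaP sign was 42.6%. Of 2217 VCaP genes tested, 1144 (51.6%) had the VCaP sign, or 49.0% without stripped replicate 1. Of 243 genes changed alike in both lines, 93 (38.3%) had their sign, or 42.7% without stripped replicate 1. At an unadjusted p below 0.05 (edgeR) in MDAPCa2a stood 9 of the 512 genes that rose in LNCaP and 11 of the 536 that fell, beside 1.73% of all genes. Of these, 5 had the LNCaP sign.

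**Figure D4:**
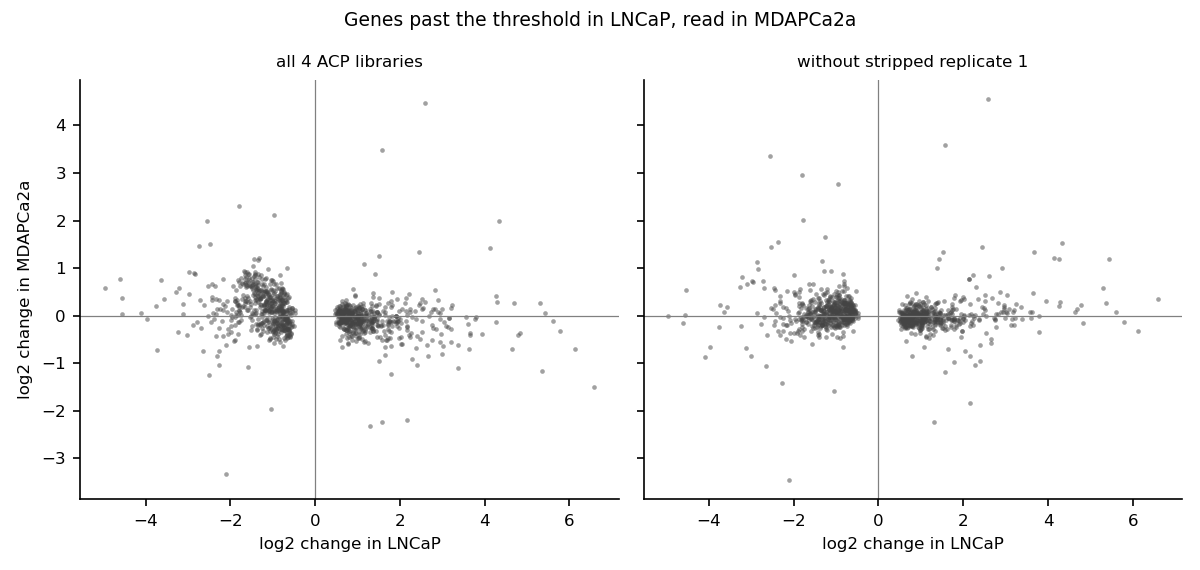
Log2 change in MDAPCa2a (vertical axis) against log2 change in LNCaP for the genes past the threshold in LNCaP, with all 4 ACP libraries on the left (1048 genes) and without stripped replicate 1 on the right. On the left the LNCaP-lowered genes lie mostly above 0 and the LNCaP-raised genes mostly below, and on the right both clouds move closer to 0.

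Genes changed most in the same direction in LNCaP and VCaP gave no call in MDAPCa2a. UGT2B28, which conjugates androgens for excretion, read 1.85 and 0.532 CPM in stripped serum and 1.65 and 0.815 CPM with androgen (log2 change 0.06 ± 0.57), against log2 changes of 5.43 in LNCaP and 7.88 in VCaP. PLA2G2A, a secreted phospholipase, read 12.3 and 21.5 against 18.7 and 24.9 CPM (0.37 ± 0.29), where LNCaP gave -4.56 and VCaP -3.45. The groups of both genes overlapped in MDAPCa2a.

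Androgen-repressed genes gave no call in MDAPCa2a. Of 12 listed, 9 were tested, 3 above 0 and 6 below, with a median of -0.16. In LNCaP 8 of 11 fell and 1 rose, beside 3.96% and 3.77% of all genes. In VCaP 5 of 12 fell and 2 rose, beside 8.8% and 8.67%. The difference from LNCaP passed the threshold above 0 in 2 of 12 genes and below in 1, beside 0.352% and 0.768% of all genes. Against VCaP it passed above 0 in 3 of 12 and below in 2, beside 4.27% and 3.6%. FOLH1, whose values stand above, had a log2 change of -0.16 ± 0.19 in MDAPCa2a and fell by 3.03 on the log2 scale in VCaP. ACKR3, a scavenger receptor of the chemokine CXCL12, was the lowest of the list: 19 reads in stripped serum and 2 with androgen, 11.04 times higher in stripped serum with an exact 95% counting interval from 2.66 to 97.8 that covers counting error only (edgeR adjusted p = 0.968). Both stripped libraries, at 0.549 and 0.650 CPM, were above both androgen libraries, at 0.118 and 0 CPM.

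Glucocorticoid-induced genes share many elements with androgen targets. Of 15 listed, 14 were tested, 2 above 0 and 12 below, with a median of -0.14 (0.01 without stripped replicate 1). ZBTB16, a zinc finger repressor, read 45.5 and 40.6 CPM in stripped serum and 41.5 and 45.6 CPM with androgen, and PER1, of the circadian clock, read 33.8 and 18.6 against 23.96 and 21.5 CPM. Neither moved apart by group. DDIT4, an inhibitor of mTORC1, had the list's highest log2 change (0.40 ± 0.40) because stripped replicate 1, at 364.6 CPM, lay below the other 3, at 849.9, 765 and 843 CPM. Genes of steroid synthesis and metabolism were also uncalled: 14 of 25 were tested, 4 above 0 and 10 below. HSD17B6, which makes active androgen by a back-door route, read 1.23 and 0.414 against 1.53 and 1.99 CPM (1.12 ± 0.51), with groups that did not overlap. SRD5A1, which reduces testosterone to DHT, read 54.1 and 55.5 against 50.9 and 55.4 CPM.

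Lipid synthesis, an androgen-responsive programme in prostate cancer, gave no call in MDAPCa2a. Of 25 cholesterol synthesis genes, all tested, 10 were above 0 and 15 below with a median of -0.08, and for 22 the 95% interval lay within 1 of 0. SC5D, a desaturase of a late step, had the lowest log2 change of the list and read 249.5 and 129 CPM in stripped serum and 156 and 117 CPM with androgen (-0.47 ± 0.34). Stripped replicate 1 alone was high and the groups overlapped; without that library the log2 change was 0.080. In LNCaP 14 of 25 rose (median 0.66) and in VCaP 11 of 25 (0.71), beside 3.77% and 8.67% of all genes. The difference passed the threshold below 0 in 3 and 7 of 25 genes, beside 0.768% and 3.6% of all genes.

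Of 19 fatty acid synthesis genes tested, 7 were above 0 and 12 below (median -0.04). In LNCaP 10 of 19 rose and in VCaP 9 of 19, beside 3.77% and 8.67% of all genes, and 1 fell in each line. The difference passed the threshold below 0 in 3 of 20 genes against LNCaP and 6 of 20 against VCaP, beside 0.768% and 3.6% of all genes. FASN, the fatty acid synthase, read 3084 and 2778 against 3278 and 3343 CPM (0.18 ± 0.23) with an interval from -0.34 to 0.69. Both androgen libraries were above both stripped ones. ELOVL5, an elongase, read 1128 and 681 against 861 and 621 CPM (-0.29 ± 0.28), where LNCaP rose by 3.20 on the log2 scale. Of 23 secretory pathway genes 7 were above 0 and 16 below (median -0.06), and for all 23 the interval lay within 1 of 0. In VCaP 8 of 23 rose, beside 8.67% of all genes, and in LNCaP none did. The difference from VCaP passed the threshold below 0 in 4 of 23 genes, beside 3.6% of all genes, and that from LNCaP in none.

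Bone matrix and mineral genes, listed because of the surface, were 12 tested of 26, with 5 above 0 and 7 below. RUNX2, the osteoblast transcription factor, read 13.3 and 17.1 CPM in stripped serum and 13.1 and 12.4 CPM with androgen, and ANKH, which exports pyrophosphate and citrate, read 241 and 213 against 198 and 234 CPM. The RUNX2 groups did not overlap and those of ANKH did (log2 changes -0.26 ± 0.24 and -0.07 ± 0.16).

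All 30 proliferation genes had a log2 change above 0, with a median of 0.65, and none had an unadjusted p below 0.05. The order came from 1 library. Their summed level was 513 CPM in stripped replicate 1 and 1223, 1234 and 1260.36 CPM in stripped replicate 2 and the androgen replicates. The groups did not overlap for 11 of the 30 genes, all higher with androgen, beside 11.3% of all genes. MKI67, a nuclear protein of dividing cells, read 14.1 and 102 CPM in stripped serum and 75.4 and 108 CPM with androgen (0.66 ± 0.75), and TOP2A, which untangles DNA in mitosis, read 17.4 and 101 against 88.1 and 106 CPM (0.71 ± 0.65). In both genes stripped replicate 1 alone was low. Without it 19 of 30 genes were above 0 with a median of 0.03, and without stripped replicate 2 the median was 1.84 and 28 had an unadjusted p below 0.05. In that fit 2808 of all 14193 genes stood below 0.05, and the lone stripped library was assumed to vary like the other groups. In LNCaP 22 of the 30 fell with androgen, beside 3.96% of all genes, and in VCaP 24 rose, beside 8.67%. The difference between lines passed the threshold in 3 of 30 genes above 0 against LNCaP, beside 0.352% of all genes. Against VCaP it passed in 1 of 30 below 0, beside 3.6%.

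The same library was high in ACPP, MSMB and F3, named here after their values were seen. ACPP (prostatic acid phosphatase) read 1002 CPM in stripped replicate 1 and 201, 369 and 208 CPM in stripped replicate 2 and the androgen replicates. MSMB, a secreted seminal protein, read 83.5 against 14.1, 20.9 and 12.8 CPM, and F3, the tissue factor that starts coagulation, read 407 against 92.1, 107 and 82.6 CPM. In each gene androgen replicate 1 was the second highest, and the remaining libraries were close. MSMB and F3 were called only when stripped replicate 2 was left out (log2 changes -2.30 and -2.09), and without stripped replicate 1 they were 0.25 and 0.04. What sets stripped replicate 1 apart was not tested.

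Genes of smallest p with at least 5 CPM and groups that did not overlap were led by TMEM238, a small membrane protein. It read 23.9 and 24.5 CPM in stripped serum and 47.6 and 61.7 CPM with androgen, and both androgen libraries were above both stripped ones (log2 change 1.17 ± 0.22, edgeR adjusted p = 0.968, or 0.0113 without the filter on low counts; DESeq2 adjusted p = 0.02). It read 18.6 and 23.97 CPM on plastic in control medium and 66.1 and 49.2 CPM in stripped serum on plastic. Its log2 change was 1.16 without stripped replicate 1. HSPG2, the basement membrane proteoglycan perlecan, read 9.95 and 12.2 against 18.2 and 18.3 CPM (0.72 ± 0.19), and HES4, a helix-loop-helix repressor, read 16.6 and 19.6 against 35.1 and 35.1 CPM (0.96 ± 0.27). MROH6, PLA2G3, PABPC1L, FAM89B, ANKRD9, ABCB9 and SLC29A4 completed the 10 higher genes, with log2 changes from 0.60 to 0.95. None of the 10 passed the threshold with the filter on low counts.

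The 10 lower genes were CBWD1, ARSI, RMRP, ZNF563, DPH3, LEPR, RBMXL2, RPPH1, MCMDC2 and ASB3. LEPR, the leptin receptor, read 8.02 and 4.90 CPM in stripped serum and 3.36 and 3.62 CPM with androgen (-0.89 ± 0.33), with stripped replicate 1 the highest. ARSI, a sulfatase, read 4.94 and 6.03 against 0.412 and 1.38 CPM (-2.58 ± 0.90, adjusted p = 0.0474 without the filter on low counts), and on plastic its control replicates read 2.70 and 0.212 CPM. So ARSI also spread widely within 1 group on plastic.

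RMRP and RPPH1, the RNA components of RNase MRP and RNase P, belong to the RNAs that carry no poly(A) tail and that poly(A) selection should remove. RPPH1 read 146 and 70.4 CPM in stripped serum and 10.4 and 14.2 CPM with androgen, and RMRP read 65.1 and 30.5 against 5.30 and 5.96 CPM. Both stripped libraries were above both androgen libraries, with log2 changes of -3.14 ± 1.20 and -3.08 ± 1.11 (edgeR adjusted p = 0.968). Both were called with the 4 ACP libraries and a replicate block (edgeR adjusted p = 0.0196 for each) and without the filter on low counts (0.0116 for RPPH1 and 0.0113 for RMRP). That block fit left fewer residual degrees of freedom than the 4 of the main fit. TERC, the RNA of telomerase, read 2.54 and 1.36 against 0.294 and 0.764 CPM. None of the 9 tested genes of this list was above 0, and the median was -1.77. Without stripped replicate 1 the median was -1.33 and 1 gene was above 0. The list also held histone genes, of which HIST1H2BK was nearest to 0 (-0.12 ± 0.24). With all 4 libraries an unadjusted p below 0.05 (edgeR) was found for 4 of 9, beside 1.73% of all genes. In 7 both androgen libraries were below both stripped ones, beside 12% of all genes. In VCaP 6 of 11 rose with androgen (median 2.00) and in LNCaP 1 of 10 (0.88), beside 8.67% and 3.77% of all genes. The difference from VCaP passed the threshold below 0 in 3 of 12 genes, beside 3.6%, and that from LNCaP in none. The 12 listed RNAs in the table summed to 276 and 167 CPM in stripped serum and to 60.9 and 77.4 CPM with androgen on ACP, and to 86.1 and 38.0 CPM in plastic control medium and 100.2 and 86.2 CPM in stripped serum on plastic. On plastic in control medium RPPH1 read 31.2 and 0.397 CPM, so the level differed widely between replicates of 1 group. How far library preparation enters these values was not tested.

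**Figure D5:**
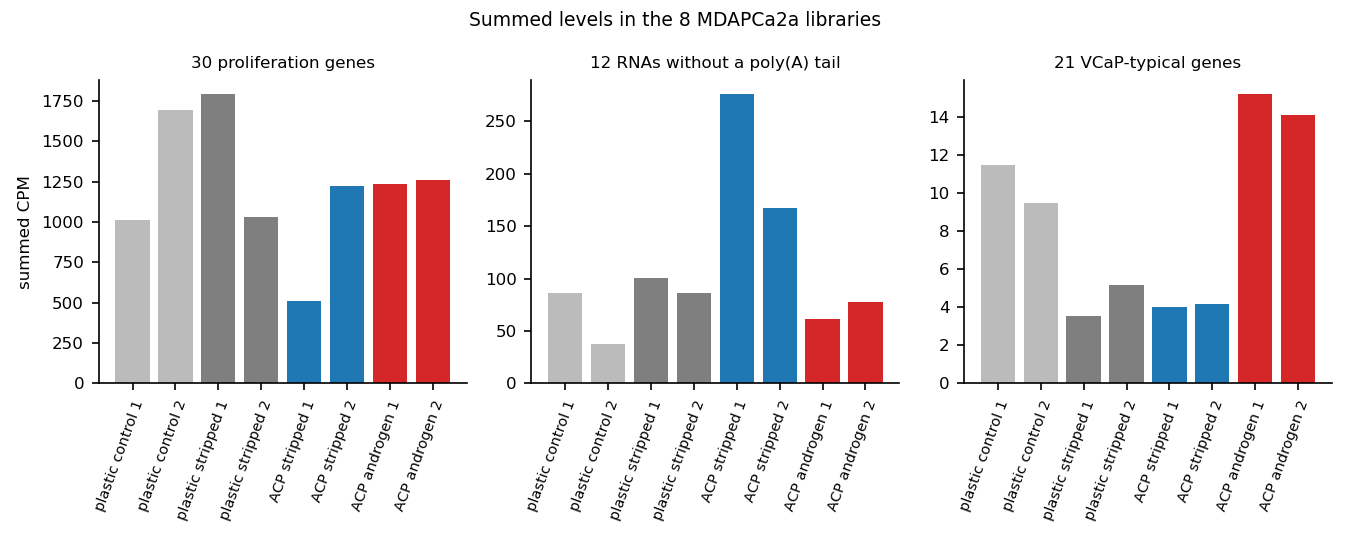
Summed CPM in each of the 8 MDAPCa2a libraries (bars, by group) of 30 proliferation genes, 12 RNAs without a poly(A) tail and 21 genes typical of VCaP. Stripped replicate 1 on ACP is low at left (513 CPM) and high in the middle (276 CPM), and both androgen libraries are the highest at right (15.2 and 14.1 CPM). The 21 genes at right include ITM2A, NPY and ERG, which the text names for their small p.

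Several genes of small p had few reads. ITM2A read 0.412 and 0.473 CPM in stripped serum and 5.48 and 2.60 CPM with androgen (3.16 ± 0.54). NPY, neuropeptide Y, had 3 reads in stripped serum and 101 with androgen, 29.0 times higher with an exact 95% counting interval from 9.63 to 143. ERG, an ETS factor that VCaP expresses through a fusion to TMPRSS2, had 2 reads against 52, 22.4 times higher (interval 5.89 to 190), or 0 and 0.118 CPM against 1.59 and 1.27 CPM. ALDH1A1 had 1 read against 25, 21.5 times higher (interval 3.52 to 883). In each gene both androgen libraries were above both stripped ones. The edgeR adjusted p was 0.968 for each with the filter on low counts. Without that filter it was 0.000726 for ITM2A, 0.000376 for NPY and 0.0145 for ERG, and DESeq2 gave 0.02 for ITM2A and NPY.

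Some of these genes are typical of VCaP. Of 21 genes with at least 50 CPM in VCaP on plastic in control medium and at most 1% of that level in each other line, ERG, NPY and ITM2A among them, the summed level in MDAPCa2a, on the size factors of all lines, was 4.01 and 4.18 CPM in stripped serum and 15.2 and 14.1 CPM with androgen on ACP. On plastic it was 11.5 and 9.49 CPM in control medium and 3.55 and 5.17 CPM in stripped serum. ITM2A, NPY and ERG, named above for their small p, make up much of the sum with androgen on ACP. On the line's own size factors ITM2A read 5.48 and 2.60 CPM there, NPY 3.06 and 2.50 CPM and ERG 1.59 and 1.27 CPM. The summed level is therefore not a result apart from those genes. VCaP itself summed to 3758 CPM with androgen on ACP. The level in MDAPCa2a was 0.114% for ITM2A, 0.247% for NPY and 0.193% for ERG of the highest group mean in another line, taking the higher MDAPCa2a group on ACP. Of the 236 genes at an unadjusted p below 0.05, 24 stood under 0.5% of another line's level, which leaves 212. The share of all tested genes under that limit was not counted, so whether 24 is many cannot be said. A transfer of reads or cells between samples was not tested. LDOC1, lower with androgen (13 and 11 reads against 1 and 1), was the only gene called in the fit of all 34 libraries (adjusted p = 0.0344), and it stood at 0.443% of another line's level.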

How the data were processed

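RNA-seq counts of poly(A)-selected libraries were used for 34 samples in 17 groups. The values are read counts per gene symbol as the authors deposited them, whole numbers that were not normalized. STAR, HTSeq and hg19 are named in the submitters' processing notes, with no role, version or annotation. Whether counting used strand is not stated, so overlapping and antisense genes are uncertain. Total counts of the 4 compared libraries were 15.4 M to 19.0 M.

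Genes were tested with edgeR 4.0.16 in R 4.3.3 (quasi-likelihood F test, TMM, filterByExpr with a minimum count of 10, Benjamini-Hochberg adjusted p below 0.05 over all genes tested). The androgen effect came from a fit of the 8 MDAPCa2a libraries (4 residual degrees of freedom). Differences between lines came from a fit of all 34 (17 degrees of freedom). Standard errors are the log2 change divided by the square root of F, and intervals are 95%. CPM use TMM sizes of the 8 libraries unless all lines are named. Log2 CPM between libraries used a pseudocount of 1.

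The members, lists and tests were chosen with earlier results of these data known. Named genes were 7 fixed ones (KLK3, KLK2, TMPRSS2, FKBP5, ERG, KRT5, TP63), the 10 higher and 10 lower genes of smallest p with at least 5 CPM and no overlap, list extremes, the 5 differences at each end, genes changed alike in LNCaP and VCaP, and genes called by alternatives with 5 or fewer calls. ALDH1A1, ACPP, HPGD, PGC and other members of lists were named after their values were seen, and some listed genes are not reported here, though counts include them. Alternatives were RLE size factors, no filter, DESeq2 1.42.0, a replicate block, leaving out each library, other sets of libraries and other thresholds. List medians without each library, unadjusted counts under each setting and the 0.5% limit were added after seeing the data. Fits were tested on simulated data with 200 changed genes of at least 5 CPM. At a log2 change of 1 the androgen fit called 42.5% of them and the fit of MDAPCa2a minus LNCaP 5%. At a log2 change of 2 these shares were 99.5% and 83.5%. The simulated libraries varied independently gene by gene, with no shift of a whole library such as that of stripped replicate 1. What the fits would call in the real libraries may therefore be less. For 1 old symbol (PPAP2A for PLPP1) the table's name was used.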

Additional observations from a re-analysis of the deposited data

Results flagged for a closer look

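The androgen effect on ACP differed between MDAPCa2a and LNCaP in 194 genes and between MDAPCa2a and VCaP in 1362 genes, by the edgeR test of the difference itself. Serum percentage also differed between MDAPCa2a and both other lines. Against LNCaP the named differences above 0 (log2) were SNPH 5.86, PLA2G2A 4.93, ABCG2 4.60, TLL1 4.39 and DDC 3.95. Those below 0 were PGC -8.01, HPGD -6.46, PCA3 -6.02, CHRNA2 -5.69, UGT2B28 -5.32, TMPRSS2 -2.59 and FKBP5 -2.05. SNPH had no read in the androgen libraries of LNCaP, so its size depends on the prior count. Calls of SNPH, PCA3 and TMPRSS2 were each lost in 6 of the 8 fits that left out a library, those of UGT2B28 and FKBP5 in 3 and that of DDC in 2.

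Against VCaP the named differences above 0 were NAALAD2 8.20, SEZ6 8.12, ACTN2 8.09, ADCY2 7.80 and CSRNP3 7.46. All but NAALAD2 had no read in either stripped MDAPCa2a library, and NAALAD2 had 3 reads there, so these sizes rest on a few reads in MDAPCa2a and on a fall of each gene in VCaP. Those below 0 were SEMA3G -8.65, PGC -7.72, SLC5A1 -7.65, STEAP4 -7.15, ACOT1 -6.60, KLK3 -5.19, FKBP5 -3.41 and TMPRSS2 -3.21. ACOT1 had no read in the androgen libraries of MDAPCa2a. Calls of PGC, STEAP4, SEMA3G, SLC5A1, KLK3, FKBP5 and TMPRSS2 were kept in all 8 fits that left out a library. Those of SEZ6 were lost in 5, ACOT1 in 4, ADCY2 and CSRNP3 in 3 each and ACTN2 in 1.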

How the results depend on the processing

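The count of called genes in MDAPCa2a was 0 with RLE size factors, with 4 or 6 libraries, with both other thresholds and with the replicate block, 9 without the count filter, 3 with DESeq2, 1 in the fit of all 34 libraries, 2 with the 4 ACP libraries and a replicate block (RMRP and RPPH1), and 0 to 3 without a library (3 without stripped replicate 2: CBWD1, F3 and MSMB, with 2808 genes at an unadjusted p below 0.05). For MDAPCa2a minus LNCaP it was 493 without the filter, 472 with DESeq2, 77 with the 12 ACP libraries and 77 to 598 without a library (lowest without LNCaP stripped replicate 1, highest without MDAPCa2a stripped replicate 2, 433 without LNCaP androgen replicate 2 and 77 to 96 without each other library); for MDAPCa2a minus VCaP it was 691 with the 12 libraries and 646 to 1685 without a library (646 to 778 without VCaP stripped replicate 1 or androgen replicate 2 or MDAPCa2a stripped replicate 1 or androgen replicate 2). Genes with the sign of another line numbered 791 (LNCaP), 1730 (VCaP) and 209 (both) without the filter, and 175 (LNCaP) and 46 (both) at an absolute log2 change of at least 1, where other genes were tested. The labels pair replicates of the 2 groups by number only. Over 10489 genes the replicate differences of the 2 groups correlated at 0.68 across 2 pairs. The replicates therefore differed partly alike in both groups. With the 4 ACP libraries alone, 1243 genes stood at an unadjusted p below 0.05 (edgeR) with the replicate block and 105 without it. In the main fit these counts were 205 and 236. The block fit of the 4 ACP libraries left fewer residual degrees of freedom than the 4 of the main fit. What replicates of the same number share was not tested. The replicate block gave 236 calls against LNCaP and 1630 against VCaP. Log2 changes that turned sign when 1 library was left out are given as the range over the 4 such fits. They turned without stripped replicate 1 in KLK3 (-0.81 to 0.0040), TMPRSS2 (-0.63 to 0.011), FKBP5 (-0.29 to 0.040; 0.035 without that library), KRT5 (-0.10 to 10.34), DDC (-0.41 to 0.82; -0.24), DDIT4 (-0.082 to 1.15), AKR1C2 (-6.42 to 0.22), SC5D (-0.86 to 0.080), F3 (-2.09 to 0.037), MSMB (-2.30 to 0.25), HPGD (-1.84 to 0.26), PGC (-2.26 to 0.35), MKI67 (-0.15 to 2.71) and TOP2A (-0.058 to 2.49). Without androgen replicate 2 FKBP5, KRT5 (-0.047), DDC, TRPM8 (-0.038 to 0.34) and DNAJB9 (-0.56 to 0.051) turned, without androgen replicate 1 CCNE2 (-0.25 to 0.52), PHEX (-0.12 to 0.90) and HIST1H2BK (-0.38 to 0.13), and without stripped replicate 2 HIST1H2BK (0.11). Of these genes F3 and MSMB alone were called under an alternative, without stripped replicate 2. The cause of these shifts was not tested.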

Other observations

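Basal and squamous keratins differed in pattern between libraries of MDAPCa2a on ACP. KRT14 read 39.03 and 24.3 CPM in stripped serum and 28.7 and 25.4 CPM with androgen (log2 change -0.23 ± 0.25), highest in stripped replicate 1. KRT5 read 0 and 6.85 CPM in stripped serum and 3.36 and 9.32 CPM with androgen, with no read in stripped replicate 1 (log2 change 0.87 ± 1.14, edgeR adjusted p = 0.968), and it stood at 0.0686% of another line's level. TP63, the basal transcription factor, had 0 and 6 reads in stripped serum and 3 and 3 with androgen. Of 10 basal markers 8 were tested and 7 of those were above 0, with a median of 0.59. Without stripped replicate 1 the median was 0.10 and 5 were above 0. With all 4 libraries KRT16 and KRT17 stood at an unadjusted p below 0.05 (edgeR), 2 of 8 beside 1.73% of all genes. Neither had a read in stripped replicate 1, the library that stood apart, and the count depends on it. KRT16 had 0 and 1 reads in stripped serum and 4 and 17 with androgen, and KRT17 had 0 and 16 against 30 and 57. They stood at 0.0595% and 0.0608% of another line's level.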
